A study of Mus musculus with 4 samples.

Results

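The sites described here are places in the mouse genome where the estrogen receptor alpha, ESR1, was called in both liver and uterus with nearly the same summit and with at least as many sequencing tags in liver. They were chosen by overlapping the liver and uterus peak lists by at least 1 bp, keeping autosomal pairs whose summits lay at most 50 bp apart, and scaling each peak's tags to 1000000 unique tags of its library, which gives scaled tags. Pairs with a liver value at or above the uterus value were kept and are called liver-weighted sites below. There were 512 of them among 940 coincident autosomal pairs, a share of 54.5%, out of 1651 overlapping pairs in all. The other 428 coincident pairs are called uterus-weighted. Because the tags of both libraries chose the sites, the liver excess itself is a description and was not tested.

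The data were ChIP-seq peak lists, 1 from liver and 1 from uterus, made from flash-frozen organs of female C57BL/6 mice (C57BL/6J in the growth protocol) aged 8 weeks. No genotype change or hormone treatment is given for either group, and the tissues came from the same supplier. An input control of each tissue entered through the authors' peak calling. Each tissue was thus represented by 1 library, no spread between animals was available, and a difference between libraries cannot be told apart from a difference between tissues. The labels do not say whether several animals were pooled in a library, nor at which stage of the estrous cycle they were.

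ESR1 is a ligand-activated transcription factor of the nuclear receptor family. Estradiol binding favours receptor dimers that contact palindromic estrogen response elements directly, and the receptor can also reach DNA through other bound factors. In the uterus it drives growth and secretion of the epithelium and stroma over the estrous cycle. In the liver it is known for effects on lipid and bile acid metabolism and on secreted proteins. A coincident summit means only that the tag pile-ups of both libraries peaked at nearly the same position.

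Unique tags numbered 20016495 in the ESR1 library of liver and 22298008 in that of uterus, so 1 tag stood for 0.0500 scaled tags in liver and 0.0448 in uterus. Of these tags, 2.42% lay inside called peaks in liver and 8.80% in uterus. The liver list was the shorter, with 6896 autosomal peaks against 24527. The liver-weighted sites made up 7.42% of the autosomal liver peaks and 2.09% of the autosomal uterus peaks. They held 10.8% of all liver tags inside peaks and 1.73% of the uterus tags inside peaks. No peak belonged to more than 1 liver-weighted pair, and in 506 of the 512 pairs neither peak overlapped any further peak of the other list.

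The liver peaks of the liver-weighted sites ranked higher in their list than the uterus peaks did in theirs. Their liver peaks held 28 to 677 tags with a median of 77 (quartiles 58 and 114), and their uterus peaks 18 to 440 tags with a median of 54 (40 and 76). In scaled tags the medians were 3.85 in liver and 2.42 in uterus. At the uterus-weighted sites the medians were 2.70 in liver and 5.34 in uterus. The liver peaks of liver-weighted sites thus stood high in their own list, at a median percentile of 72.8 by tags, while the uterus peaks stood in the middle of theirs, at 48.8. By contrast, the uterus peaks of uterus-weighted sites stood at a median percentile of 85.0 and their liver peaks at 43.6. By tags, the weaker partner was therefore a mid-ranking peak of its list in each class. By fold enrichment over control this was not so. There the uterus peaks of liver-weighted sites stood at a median percentile of 30.8, and the liver peaks of uterus-weighted sites at 62.5.

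**Figure D1:**
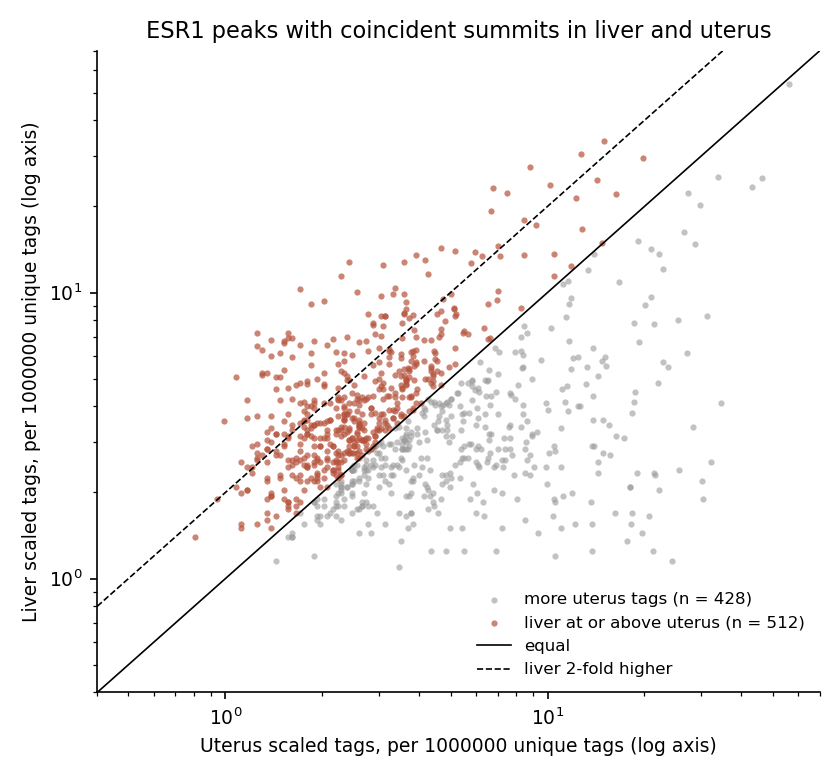
Scaled tags, per 1000000 unique tags, in the uterus library (horizontal log axis) and the liver library (vertical log axis) at 940 coincident autosomal peak pairs, 1 point a pair. The 512 liver-weighted sites lie on or above the solid line of equal values by construction, and 141 of them reach or pass the dashed line at which liver is 2-fold higher.

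The ratio of liver to uterus scaled tags had a median of 1.54 (quartiles 1.22 and 2.08) and ran from 1.00 to 6.04. A ratio of 2 or more was reached by 141 sites, which was 27.5% of the liver-weighted sites and 15% of all coincident pairs. Ratios of 3 or more were found at 45 sites, of 4 or more at 19 and of 5 or more at 5. Seen from the other side, 172 coincident pairs, or 18.3%, were at least 2-fold higher in uterus, so the coincident sites spread to both sides of equality. An exact interval of the ratio of 2 counts, which covers counting error only, lay wholly above 1 at 293 sites, or 31.2% of the coincident pairs. At the remaining 219 of 512 sites the interval reached 1, so their place on the liver side was within counting error. For all 141 sites of at least 2-fold the interval lay above 1. The choice of sites also rests on the scaling. Tags inside peaks are a smaller share of the liver library, and with tags divided by the tags inside all peaks of the list, 875 of the 940 coincident pairs (93.1%) were at or above uterus and 65 below.

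The sites nearest the threshold show how thin the line is. The liver-weighted site with the smallest ratio lay on chromosome 13 at 104834365 to 104834934 and held 45 tags in liver and 50 in uterus, a ratio of 1.00 (interval 0.655 to 1.53). The next ones, on chromosome 10 at 5756481 to 5756969 and on chromosome 4 at 106850709 to 106851324, each held 46 and 51 tags. Just outside lay a pair on chromosome 5 at 136282432 to 136282884 with 34 liver and 38 uterus tags, a pair on chromosome 8 at 122892615 to 122893324 with 85 and 95, and one on chromosome 17 at 35137706 to 35138342 with 67 and 75. All 6 held fewer raw tags in liver than in uterus, and they fell on either side of the line through the depth of the libraries. All positions in the text are mm9 coordinates copied from the deposited lists. Genes and sequences at these positions are not given, because an mm9 genome and annotation were not used here.

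The 8 sites of largest ratio held no more uterus tags than the median liver-weighted site, which a ranking by ratio favours. The highest ratio lay on chromosome 8 at 124086354 to 124087589, with 206 tags in liver and 38 in uterus, a ratio of 6.04 (4.26 to 8.78). Enrichment over control there was 27.3-fold for the liver peak and 5.76-fold for the uterus peak. A site on chromosome 2 at 60700919 to 60701491 held 145 and 28 tags, a ratio of 5.77 (3.83 to 8.98), and its uterus peak had a score of 100 (10 times the −log10 of the p-value), where the authors' cutoff also lies. A site on chromosome 9 at 66359201 to 66360538 held 256 and 54 tags, a ratio of 5.28 (3.92 to 7.22). It was followed by chromosome 11 at 34820178 to 34820888 (130 and 28 tags), chromosome 4 at 62156810 to 62158498 (229 and 51 tags) and chromosome 11 at 77596530 to 77597196 (182 and 41 tags). The other two of the 8 leading sites by ratio lay on chromosome 6 at 72111630 to 72112562 (137 and 31 tags) and on chromosome 8 at 96901341 to 96902301 (126 and 29 tags). Across these 8 sites the uterus peaks held 28 to 54 tags at 5.76- to 13.0-fold enrichment. The liver peaks held 126 to 256 tags at 7.64- to 41.2-fold enrichment, so not all of them were strongly enriched. Paired summits lay 1 to 23 bp apart with a median of 17 bp, within the 50 bp that the choice of sites allows.

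A different set of sites led by enrichment over control in liver, and these were strong in uterus as well. The fold enrichments were deposited by the authors for each peak and depend on each library's own control. First came a site on chromosome 5, from 111219578 to 111220265, where 173 liver tags (87.8-fold) stood beside 104 uterus tags (51.1-fold). On chromosome 4, from 62382646 to 62383737, there were 551 liver tags (87.0-fold) and 197 uterus tags (63.6-fold), a ratio of 3.12 (2.64 to 3.69). On chromosome 7 at 6362603 to 6363367 the liver peak held 346 tags at 82.8-fold and the uterus peak 206 at 47.6-fold. Another site on the same chromosome, at 6195767 to 6196825, was close to equal in tags, with 299 in liver and 329 in uterus, a ratio of 1.01 (0.863 to 1.19). The site on chromosome 3 at 84087309 to 84088288 held 442 and 364 tags, at 80.9-fold in liver and 105-fold in uterus. The remaining leaders lay on chromosome 19 at 4988938 to 4989505 (138 and 146 tags), chromosome 6 at 145804111 to 145804736 (140 and 87 tags) and chromosome 11 at 98644295 to 98645218 (474 and 227 tags). None of these 8 was among the 8 of largest ratio, and their ratios ran from 1.01 to 3.12.

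By tags, the strongest liver peak among the sites lay on chromosome 14 at 26327601 to 26329930 with 677 tags in liver and 333 in uterus, a ratio of 2.26 (1.98 to 2.59). The summits were 1 bp apart, and the liver peak was 2330 bp wide against 962 bp in uterus. Next came chromosome 11 at 100731372 to 100732666, with 611 and 284 tags and summits on the same base. The third, on chromosome 11 at 98633983 to 98635928, held 593 and 440 tags, and its uterus peak of 440 tags was the largest of any liver-weighted site. At the first pair of these, fold enrichment was higher in uterus (83.4 against 66.5 and 74.1 against 55.4), although liver held more than 2 times the scaled tags.

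That disagreement between tags and fold enrichment was common. Liver fold enrichment was above uterus fold enrichment at 348 of the 512 sites, or 68.0%, against 46.8% of all coincident pairs. At the other 164 sites the uterus value was equal or higher, and at 17 sites it was at least 2 times the liver value. Fold enrichment comes from the same tags as the choice of sites, so these counts describe the sites and are no separate evidence. The median fold enrichment was 14.4 in liver (quartiles 10.8 and 23.2) and 11.5 in uterus (8.90 and 16.2). Ranked within its own list by fold enrichment, the liver peak stood a median of 30.4 percentile points above its uterus partner. The most opposed site lay on chromosome 4 at 62169693 to 62171910. It held 287 tags in liver and 104 in uterus, a ratio of 3.07 (2.45 to 3.89), but its fold enrichment was 11.2 in liver and 44.7 in uterus. This site was chosen after its values were seen. It lies 11.2 kb from the chromosome 4 site of high ratio named above, whose liver peak also had a low enrichment of 7.64-fold. Both liver peaks were wide, at 2218 and 1689 bp.

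**Figure D2:**
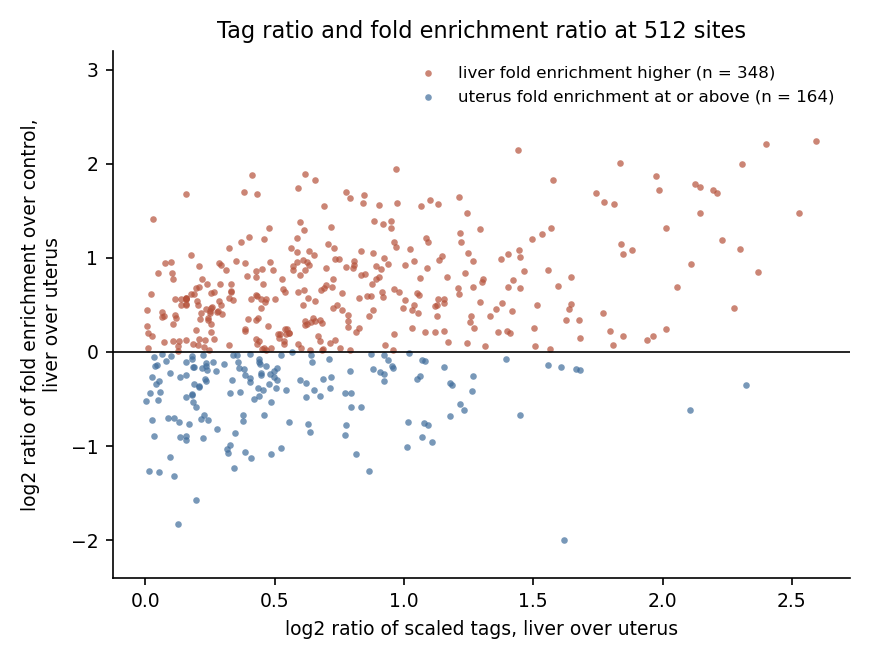
The log2 ratio of scaled tags (horizontal axis) and the log2 ratio of fold enrichment over control (vertical axis), liver over uterus, at the 512 liver-weighted sites, 1 point a site. The 348 sites above the line have the higher fold enrichment in liver, and the 164 on or below it have an equal or higher fold enrichment in uterus, mostly at small tag ratios.

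The 164 sites where fold enrichment did not favour liver had smaller tag ratios, with a median of 1.35 against 1.63 at the 348. Among sites with a ratio under 1.25, fold enrichment was higher in liver at 74 of 135, and among those with a ratio of 3 or more at 39 of 45. Peak width moved with the ratio too. The liver peak was the wider one at 400 of 512 sites (78.1%), against 80 of 428 uterus-weighted sites (18.7%) and 51.1% of all 940 coincident pairs. Width thus followed the class with more tags on either side, with median widths at the liver-weighted sites of 682 bp in liver and 582 bp in uterus, and the median ratio of widths was 1.16 (order-statistic interval 1.13 to 1.18). Across the 512 sites, the ratio of widths and the ratio of tags had a Spearman correlation of 0.56; the points share both libraries, and a wider peak sums more tags. Counted per kb of peak, liver was at or above uterus at 456 of the 512 sites. The other 56 sites were above uterus in summed tags and below it per kb. With tags per kb as the measure, 65 coincident sites were at least 2-fold higher in liver, against 141 by summed tags.

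Fold enrichments under 5 were rare at coincident sites of both classes. A value under 5 in either library was found at 2 of 512 liver-weighted pairs and at 5 of 428 uterus-weighted pairs, or 0.745% of all 940, and the difference of -0.778 percentage points (-2.34 to 0.444) was within counting error. The lowest liver value was 4.53-fold, on chromosome 11 at 108058603 to 108059447, where liver held 77 tags and uterus 75, the latter at 13.5-fold. The lowest uterus value was 4.47-fold, on chromosome 8 at 126001140 to 126002208, with 68 liver and 51 uterus tags. In the authors' lists the false discovery rate was at most 0.66% in liver over these sites and listed at 0% in uterus.

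The strength of a site in one organ went with its strength in the other. Among the 512 sites, scaled tags in liver and uterus had a Spearman correlation of 0.65 and fold enrichments one of 0.50. The points share both libraries, and the floor of 1 on the ratio enters the first value, which follows in part from the choice of sites. Over all 940 coincident pairs the correlation of tags was 0.26 and that of fold enrichments 0.42. Of the liver-weighted sites, 148 (28.9%) lay in the top 10% of the liver list by fold enrichment and 25 (4.88%) in the top 10% of the uterus list. Of those 25, 24 were also among the 148. In the other direction, 87 uterus-weighted sites lay in the top 10% of the liver list, and 68 of them were also in the top 10% of the uterus list. The choice of sites by the higher tags largely sets these overlaps, so they describe the sites, are given without a test and support nothing.

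Summits lay a median of 18 bp apart (quartiles 9 and 31) within the 50 bp allowed, and the same base was the summit in both libraries at 9 sites. The offset had no marked side, with the liver summit at the higher coordinate in 271 of 512 pairs, or 52.9% (Wilson interval 48.6 to 57.2). Summits within 10 bp were found at 147 sites, or 28.7% (24.96 to 32.8), against 149 of 428 uterus-weighted sites, or 34.8% (30.5 to 39.4). The difference was -6.10 percentage points (Newcombe interval -12.1 to -0.141), and it did not hold under 7 of 13 alternatives, under 1 of which it turned positive (4.08). Within the liver-weighted sites, divided into 4 groups of equal size by liver fold enrichment, close summits were most frequent in the top group, without a steady rise. From the lowest group to the highest the share within 10 bp was 28.1%, 14.8%, 32.8% and 39.1%. At the uterus-weighted sites divided in the same way it was 30.8% to 32.7% in the lower 3 groups and 43.9% in the top one, so both classes had their highest share there. Of the 154 sites with at least 20-fold enrichment in liver, 40.3% had summits within 10 bp, against 23.7% of the 358 others, a difference of 16.5 points (7.75 to 25.4). A summit is placed more precisely in a taller pile-up, and the part of this in the difference was not tested.

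The surroundings of the sites were not used to choose them, and here the 2 classes of coincident sites differed. Of the liver-weighted sites, 144 had another uterus summit within 10 kb, or 28.1% (24.4 to 32.2), as did 196 uterus-weighted sites, or 45.8% (41.1 to 50.5). The difference of -17.7 percentage points (-23.7 to -11.5) was larger than counting error. For other liver summits the order was the reverse, with 165 liver-weighted sites, or 32.2% (28.3 to 36.4), against 107 uterus-weighted sites, or 25% (21.1 to 29.3), a smaller difference of 7.23 points (1.41 to 12.9). The liver-weighted sites also hold more liver tags, with a median of 77 against 54, and the part of this in the difference was not tested. The difference in liver neighbours did not hold under 6 of 15 alternatives, among them a distance of 50 kb, where it was 1.98 points (-4.30 to 8.27). The difference in uterus neighbours held at 5 kb (-13.4 points) and at 50 kb (-11.0 points). Sites are not replicates and neighbouring sites can share a region, so these intervals describe the 2 libraries and are somewhat too narrow.

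**Figure D3:**
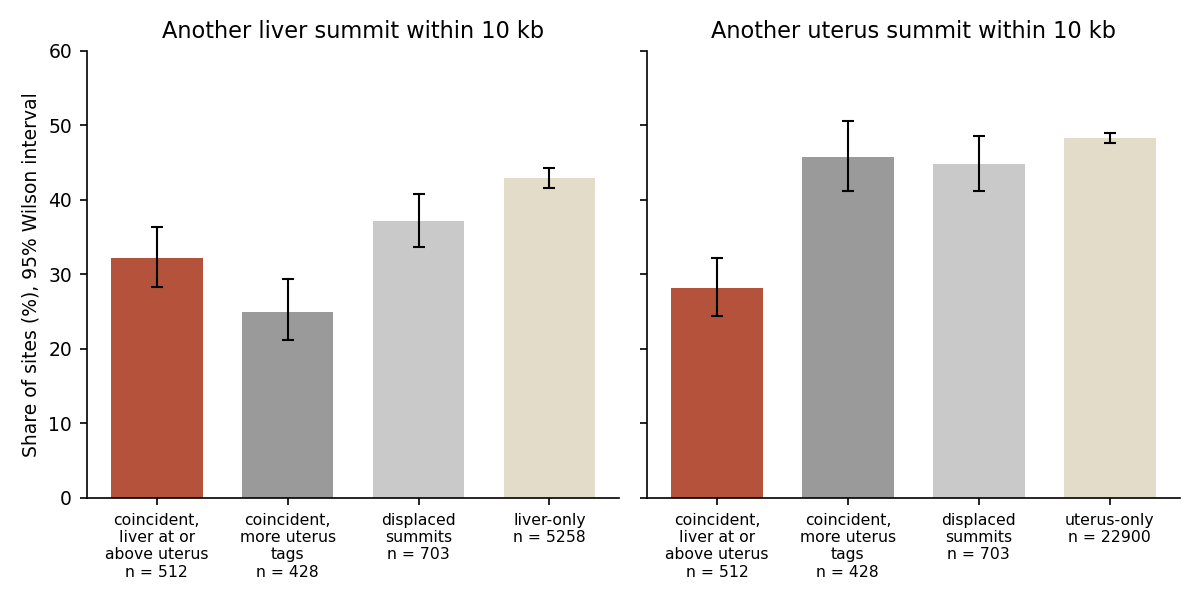
Share of sites with another liver summit (left) or another uterus summit (right) within 10 kb, in percent, for the liver-weighted sites, the uterus-weighted sites, overlapping pairs with displaced summits and the single-tissue peaks of the same list. Bars are shares and whiskers 95% Wilson intervals; the liver-weighted sites had the lowest share for uterus summits, at 28.1%.

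Liver-weighted sites were also less often clustered than peaks found in a single tissue. Another liver summit lay within 10 kb of 42.9% of the 5258 autosomal liver-only peaks, which was 10.7 points more than at the liver-weighted sites (difference -10.7, interval -14.8 to -6.32). Another uterus summit lay within 10 kb of 48.3% of the 22900 autosomal uterus-only peaks, and here the difference was -20.2 points (-24.0 to -16.1). Overlapping pairs with displaced summits stood near the single-tissue peaks for uterus neighbours, at 44.8%. For liver neighbours the displaced pairs stood at 37.1% and the uterus-weighted sites at 25%. A share of liver neighbours below that of liver-only peaks was therefore not particular to the liver-weighted sites. In total, 252 distinct liver peaks and 209 distinct uterus peaks lay within 10 kb of a liver-weighted site, although the uterus list is much the longer. Around the uterus-weighted sites there were 157 and 329. Most of the neighbours were single-tissue peaks, 190 of the 252 liver peaks (75.4%) and 148 of the 209 uterus peaks (70.8%). Single-tissue peaks also make up most of each list, 5258 of 6896 autosomal liver peaks and 22900 of 24527 autosomal uterus peaks. The liver share was thus near that of its list, and the uterus share was below that of its list. Around the uterus-weighted sites the shares were 68.2% of the liver and 86.6% of the uterus neighbours. At 100 kb the liver-weighted sites had a mean of 2.37 other liver and 3.72 other uterus summits, against 2.29 and 5.30 at the uterus-weighted sites. At this range the liver surroundings were thus alike in number, and the classes differed on the uterus side.

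Strength of the uterus peak bears on this comparison, since the uterus-weighted sites hold more uterus tags. Among coincident sites with more than 72 uterus tags, the median of the 940, a uterus neighbour within 10 kb was found for 31.2% of 141 liver-weighted and 49.2% of 327 uterus-weighted sites, a difference of -18.0 points (-26.9 to -8.34). Among those with 72 or fewer it was 27.0% of 371 against 34.7% of 101, a difference of -7.70 points (-18.3 to 2.09), which counting error could cover. The lower share of uterus neighbours was thus beyond counting error above 72 tags and was not detectable at 72 or fewer. The 2 intervals overlap, and whether these groups differ was not tested. The split also does not match the classes in strength. The upper quartile of uterus tags was 76 over all liver-weighted sites and 204 over all uterus-weighted sites. The part of peak strength in the difference was not tested.

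Within the liver-weighted sites, the share with liver neighbours was higher at ratios of 2 or more and showed no rise below 1.5. Another liver summit lay within 10 kb of 24.4% of the 135 sites with a ratio under 1.25, of 23.1% of the 104 sites from 1.25 to 1.5, of 28.0% of the 132 sites from 1.5 to 2, of 45.8% of the 96 from 2 to 3 and of 60% of the 45 at 3 or more. Taken as sites of at least 2-fold against the others, 71 of 141 (50.4%) and 94 of 371 (25.3%) had a liver neighbour, a difference of 25.02 points (15.6 to 34.2). The difference was measured again at strong and weak liver peaks apart. Among sites with more than 77 liver tags, the median of the 512, the difference was 21.98 points (9.70 to 33.5), and among those with 77 or fewer it was 19.7 points (3.83 to 37.0). Uterus neighbours also became more frequent, from 25.1% under 2-fold to 36.2% at 2-fold or more, a difference of 11.1 points (2.31 to 20.3). When the ratio was taken between fold enrichments in place of tags, the liver difference shrank to 9.11 points (-1.41 to 20.2), which counting error could cover. When it was taken between shares of the tags inside peaks, it was 6.19 points (-2.69 to 13.7).

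**Figure D4:**
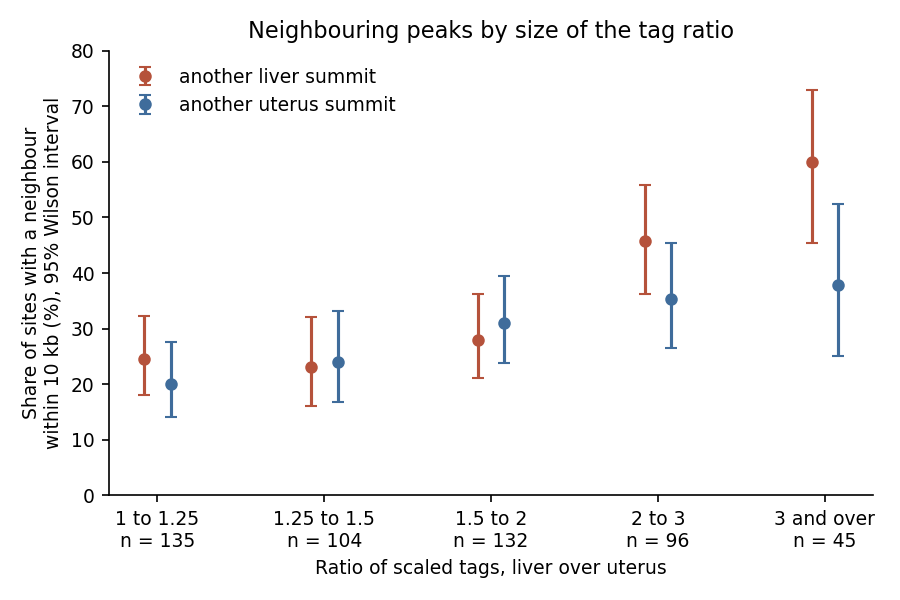
Share of liver-weighted sites with another liver summit (red) or another uterus summit (blue) within 10 kb, in percent, by the ratio of liver to uterus scaled tags. Points are shares and whiskers 95% Wilson intervals; the share with a liver neighbour is 24.4% in the lowest class and 60% in the highest.

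Some liver-weighted sites lay close to each other. Of the 512, 60 (11.7%, Wilson interval 9.21 to 14.8) lay in a run in which successive liver-weighted sites were at most 100 kb apart. Counted in the same way among themselves, 73 of the 428 uterus-weighted sites (17.1%, 13.8 to 20.9) did so. The difference was -5.34 percentage points (-9.93 to -0.851), and it did not hold under 6 of 13 alternatives, under 3 of which it turned positive. A share in runs also depends on how many sites a class holds. Among the liver-weighted sites 27 runs held 2 sites and 2 runs held 3. One of the longer runs, on chromosome 7 from 52959378 to 52963904, packed 3 sites into 4.53 kb. They held 464, 167 and 445 tags in liver and 151, 85 and 167 in uterus, ratios of 3.42, 2.19 and 2.97, and fold enrichments of 42.4, 44.7 and 53.0 in liver against 14.0, 15.0 and 21.2 in uterus. All 3 sites leaned to liver by both measures, and no further liver or uterus summit lay in the run. The other, on chromosome 15 from 88661756 to 88695527, spanned 33.8 kb with 8 liver and 6 uterus summits. Its 3 sites held 57, 208 and 94 liver tags and 30, 75 and 98 uterus tags, so their ratios were uneven at 2.12, 3.09 and 1.07.

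Among nearby coincident sites, no shared lean was detected beyond counting error. Sites that are each other's nearest enter these counts from both sides. For the coincident sites with another coincident site within 100 kb, the nearest one was liver-weighted in 51 of 116 cases at liver-weighted sites (44.0%) and in 66 of 130 at uterus-weighted sites (50.8%), a difference of -6.80 points (-18.9 to 5.63). Pairs with displaced summits, which the choice of sites left out, gave another reading. The nearest such pair within 100 kb had at least as many scaled tags in liver in 62 of 99 cases at liver-weighted sites (62.6%) and 46 of 103 at uterus-weighted sites (44.7%), a difference of 18.0 points (4.21 to 30.8). Over all 703 displaced pairs the share was 55.9%. The difference was 3.77 points (-4.34 to 11.8) within 1000 kb, and it did not hold under 8 of 13 alternatives, under 1 of which it changed sign. In all, 6 such comparisons were made, for 2 kinds of neighbour and 3 distances, and this was the only interval of the 6 to leave out 0.

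Liver-weighted sites occurred on all 19 autosomes. Chromosome 11 carried the most, 48 of 88 coincident sites, and chromosome 13 the fewest, 11 of 30. As a share of the coincident sites, chromosome 7 was highest with 45 of 62, or 72.6% (60.4 to 82.1), and chromosome 13 lowest at 36.7% (21.9 to 54.5). Against all other autosomes the differences were 19.4 points (6.78 to 29.5) for chromosome 7 and -18.4 points (-33.5 to -0.275) for chromosome 13, and no other chromosome's interval left out 0. With the intervals widened for 19 comparisons, that of chromosome 7 ran from -0.307 to 33.6 and that of chromosome 13 from -39.3 to 8.57, so neither stood beyond what 19 comparisons allow. At displaced pairs the liver-higher share was 61.5% of 39 on chromosome 7 and 50% of 36 on chromosome 13. On chromosome X, which the choice of sites leaves out, there were 7 coincident pairs, 2 of them with at least as many scaled tags in liver.

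**Figure D5:**
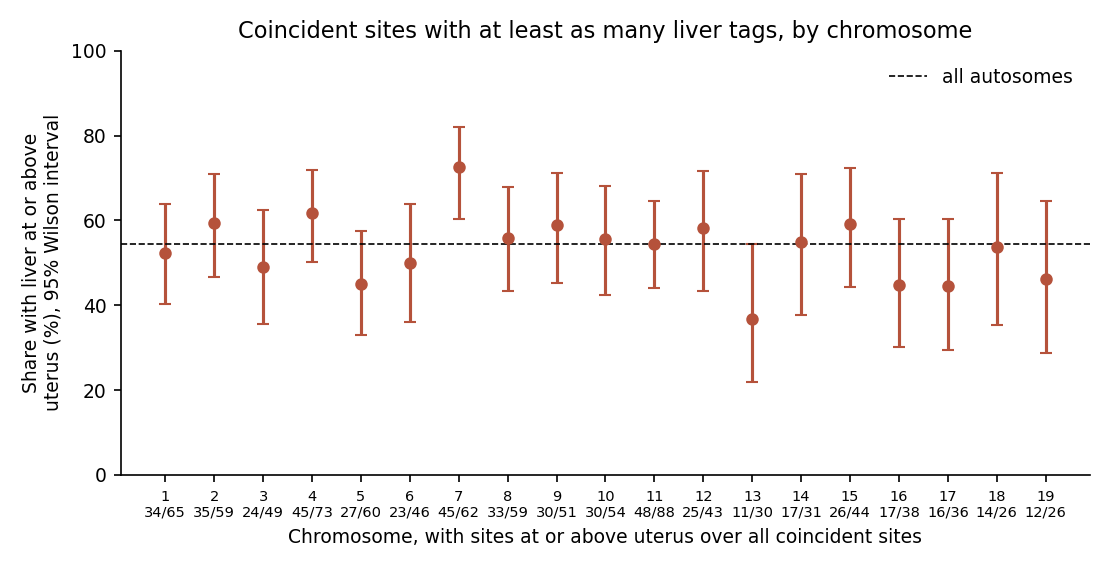
Share of coincident sites that were liver-weighted on each autosome, in percent, with the counts under each chromosome. Points are shares, whiskers 95% Wilson intervals that are not widened for the number of chromosomes, and the dashed line is the share over all autosomes (54.5%); chromosome 7 is highest and chromosome 13 lowest.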

How the data were processed

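ChIP-seq peak lists of ESR1 from 1 liver and 1 uterus library were used, with input controls that entered only through peak calling. Per the labels' protocols, 100 mg of tissue was crosslinked in 1% formaldehyde for 15 minutes. The authors called peaks with MACS 1.3.7.1 on mm9, per the submitters' processing notes, at a p cutoff of 1e-10, per the file headers. The labels and headers name no aligner. The deposited tag counts are raw counts per peak. Fold enrichment, as deposited, is the ratio of ChIP signal over the local background from the control. Each peak's deposited score equals −log10 of its p-value multiplied by 10. The false discovery rate was deposited as a percent. Summits were placed at the start plus the summit column minus 1.

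Pairs overlapped by at least 1 bp with summits at most 50 bp apart, on autosomes. Tags were divided by the unique tags given in the headers and scaled to 1000000 unique tags (scaled tags). For tags less the local background, the background was scaled tags divided by the deposited fold enrichment, and no control tags were counted. Shares have 95% Wilson intervals, differences of shares Newcombe intervals, ratios of counts exact conditional intervals and medians order-statistic intervals. All cover counting error or the spread over sites, not the variation between animals, and no test between tissues was possible. A neighbour is any other peak of the list with its summit within 10 kb. The named sites are the 8 of highest liver fold enrichment, the 8 of largest ratio with at least 5-fold enrichment in both lists, the 3 on each side of the threshold, the 3 with the most liver tags and the lowest in each list by fold enrichment. The sites, this rule and the comparisons were chosen with earlier results of these data known. The functions were tested on simulated data. Motifs, genes and sequences were not analysed here, since no mm9 genome was used. The software was matplotlib 3.10.9, scipy 1.17.1, pandas 2.3.3, numpy 2.4.6 and Python 3.11.15.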

Additional observations from a re-analysis of the deposited data

How the results depend on the processing

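With summits at most 25 bp apart there were 332 liver-weighted sites, or 51.0% of the coincident pairs. A score of at least 200 in both lists left 181. With tags divided by the tags inside all peaks there were 875 (93.1%), with raw tags 48.9% and by fold enrichment 46.9%. The median ratio was 1.44 by raw tags, 1.34 by tags per kb and 4.13 by tags inside all peaks. Sites at least 2-fold higher in liver numbered 65 by tags per kb, 93 by fold enrichment, 47 at a score of at least 200 and 752 by tags inside all peaks. The median gap in percentile by fold enrichment was 13.9 by tags inside all peaks, 21.2 at a score of at least 200 and 40.1 by fold enrichment, and the median ratio of widths was 1.03, 1.11 and 1.09 in that order and 1.09 by tags per kb.

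The share with another liver summit was 23.4% within 5 kb and 60.2% within 50 kb. The share with another uterus summit was 17.0% and 69.1%, and within 10 kb it was 34.5% by tags inside all peaks and 32.6% at a score of at least 200. For liver neighbours, liver-weighted minus uterus-weighted sites gave intervals that reached 0 by tags inside all peaks (11.3 points), by tags less the local background (5.82), by fold enrichment (4.87), at a score of at least 200 (4.45), with an overlap of 50% of each width (6.08) and within 50 kb (1.98). The same difference for uterus neighbours kept its direction with an interval below 0 under all 15 alternatives, as did both differences from single-tissue peaks under 13.

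These last and the following comparisons were chosen after seeing the data. Sites of at least 2-fold against the others gave 6.19 points for liver neighbours by tags inside all peaks and 9.11 by fold enrichment, and intervals above 0 under the other 11 alternatives. For nearest displaced pairs the difference was -4.89 by tags inside all peaks, and its interval also reached 0 at 25 bp (9.73), by tags per kb (7.75), by tags less the local background (12.2), by fold enrichment (7.68), at a score of at least 200 (27.7), at 50% overlap (3.89) and for pairs that overlap no other peak (12.1). For summits within 10 bp it was 4.08 by tags inside all peaks, -2.43 at 25 bp, -4.62 by raw tags, -1.80 by tags per kb, -4.64 by fold enrichment, -2.82 at a score of at least 200 and -5.98 for pairs that overlap no other peak. For sites in runs it was 23.8 by tags inside all peaks, 1.02 by fold enrichment, 0.124 at a score of at least 200, -2.84 at 25 bp, -3.66 at 100 bp and -0.0535 by tags per kb. Fewer pairs enter at 25 bp, at a score of at least 200, at 50% overlap and for pairs that overlap no other peak. The cause of these changes was not tested under any setting. Leaving out a replicate and a paired analysis were not possible, because each tissue has 1 library. At the median of 54 uterus tags, a ratio near 1 is not resolved by the counts.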
